A study of Homo sapiens with 4 samples.

Results

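Tight junction genes were followed by sequencing of polyadenylated RNA in MIA-PaCa2 cells, an established line from a human pancreatic cancer. The members were the 9 of 57773 listed genes whose Ensembl IDs carry the symbols CLDN1, CLDN3, CLDN4, CLDN7 and CLDN12 (claudins), OCLN (occludin), MARVELD2 (tricellulin), and TJP1 and TJP3 (the scaffolds ZO-1 and ZO-3). They were taken by name. AMG510-resistant cells had been kept in rising amounts of AMG510 (sotorasib), an inhibitor of RAS signalling to the RAF, MEK and ERK kinases, over 2 months to a final 5 µM, and were compared with untreated cells. There were 2 libraries per group, which the design text describes as separate cell populations. All cells were grown in DMEM with fetal calf serum, and whether drug was present at harvest is not stated. One resistant library, replicate 2, has a treatment tag that names the drug by another number, but its title and the design text place it in the same group. Expected counts summed to 30146559 and 33074965 in the resistant libraries, against 38052558 and 35747414 in the untreated ones. Levels are counts per 1000000 counts of a library after TMM scaling (CPM), and a count of 3, the limit that a count of 0 allows, corresponded to between 0.0788 and 0.0995 CPM. Such limits and counting intervals cover counting error only.

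Tight junctions seal the space between neighbouring epithelial cells near their apical side. Claudins polymerise into the strands of the seal and set which ions may pass. Occludin and tricellulin, which share the MARVEL membrane fold, lie in the strands, with tricellulin at the corners where more than a pair of cells meet. ZO proteins hold claudins and occludin from inside and tie them to actin. In the duct epithelium of the pancreas these junctions keep the lumen apart from the tissue, and their loss accompanies the shift of epithelial cells to a mesenchymal state.

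The labelled cell type was checked against epithelial markers. KRT8, KRT18 and KRT19, keratins of simple epithelia, were present in all libraries, and the summed level of 6 epithelial markers, nearly all of it from these keratins, was 2055 and 2620 CPM in resistant libraries and 5635 and 3956 CPM in untreated ones. The defining adhesion markers were low but detected in both groups. CDH1 (E-cadherin) had 1.21 and 0.622 CPM in resistant libraries and 0.867 and 0.641 CPM in untreated ones, EPCAM stayed between 1.33 and 2.09 CPM over all 4 libraries, and KRT7, a duct keratin, lay between 0.148 and 0.401 CPM. In a wider list of 12 epithelial genes 10 were tested, with a median log2 fold change of 0.25. Of these, ESRP2 (0.92), OVOL1 (2.81) and OVOL2 (1.09) had both resistant libraries over the filter on low counts but only 1 untreated one. Their presence among the tested genes, and so the median, is partly tied to their being higher in resistant cells. KRT8 (−1.23, adjusted p = 0.00268) and KRT18 (−0.88, adjusted p = 0.00692) fell, and KRT18 lost its call with resistant replicate 1 (adjusted p = 0.0736) or untreated replicate 1 (adjusted p = 0.0825) left out. OVOL1, a transcription factor that keeps cells epithelial, had 51 and 31 counts in resistant libraries and 1 and 13 counts in untreated ones (2.81, adjusted p = 0.0291). With untreated replicate 1 left out its value was 1.95 and missed the threshold (adjusted p = 0.106), and it was 5.43 without untreated replicate 2, and 2.96 and not called with the replicate block (adjusted p = 0.0585). The other 7 did not pass, with values from −0.50 for KRT19 to 1.09 for OVOL2. Of 13 markers of leukocytes, endothelium, fibroblasts, acinar and endocrine cells that had an ID, 9 had too few counts for a test. The summed level of the 3 leukocyte markers, nearly all of it from CD68, was 33.8 and 9.44 CPM in resistant libraries and 10.4 and 13.8 CPM in untreated ones. CD68 shares 81.7% of its exon bases with AC016876.2 on the same strand, so some reads could have been assigned to either. AC016876.2 had 409 and 441 counts in resistant libraries and 936 and 654 counts in untreated ones. The summed level of the 4 fibroblast markers was 5.28 and 2.52 CPM in resistant libraries and 0.433 and 0.561 CPM in untreated ones. PDGFRB, a growth factor receptor that made up most of it in resistant libraries, had 147 and 73 counts there and 2 and 7 counts in untreated ones (log2 fold change 4.86, adjusted p = 7.69e-04). It passed the filter through the resistant libraries alone, and its value was 4.14 without resistant replicate 1, 4.26 without untreated replicate 1 and 5.95 without untreated replicate 2. The other fibroblast markers, DCN, LUM and PDGFRA, had too few counts for a test and at most 0.294 CPM in any library. The endothelial markers summed to 5.83 and 0.977 CPM in resistant libraries and 8.42 and 4.22 CPM in untreated ones, and the acinar and endocrine markers were at or near 0. The part of these markers in the results below was not tested. In such bulk libraries, a change in the number of cells that express a gene and a change in RNA per cell cannot be told apart.

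In resistant cells 4 members rose, CLDN1, CLDN4, CLDN12 and MARVELD2, and 1 fell, CLDN7. CLDN1 changed most, to 89.5 ± 9.05 CPM in resistant libraries against 9.65 ± 2.32 CPM in untreated ones (SD, n = 2 each), and CLDN12 and MARVELD2 were close to double. OCLN, TJP1 and TJP3 did not pass the test, and CLDN3 had too few counts for one. Calls were made with edgeR's quasi-likelihood test at a Benjamini-Hochberg adjusted p below 0.05 over all 16090 tested genes, of which 34.0% were called, 16.6% higher and 17.4% lower in resistant cells. Without untreated replicate 1 the number of called genes was 2832, against 5463 with all libraries. With a library left out, 1 group has a single library that is assumed to vary like the pair of the other group, here and wherever a library is left out below. The groups did not overlap in 7 of the 8 tested members, and in 70.9% of all tested genes. The median log2 fold change was 0.74 over the 8 tested members and −0.01 over all tested genes. CLDN7 passed the filter on low counts through the untreated libraries alone, so its presence among the tested members is tied to its being higher there. The design text calls the replicates populations without saying how they were kept apart, so p-values speak only of the spread among the 4 libraries.

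**Figure D1:**
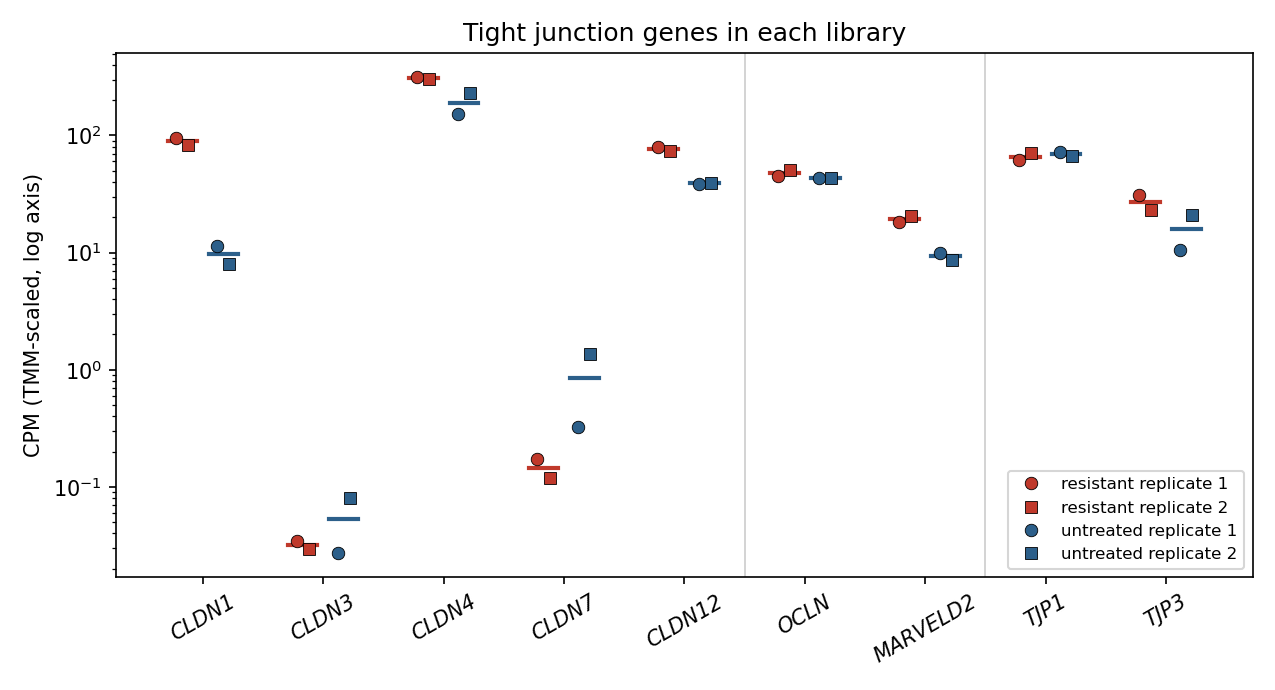
Level of each member in CPM (log axis) in the resistant libraries (red, left of each pair) and the untreated ones (blue), with circles for replicate 1, squares for replicate 2 and bars for group means. CLDN1 sits at 95.9 and 83.1 CPM in resistant libraries, against 11.3 and 8.01 CPM in untreated ones, whereas TJP1 overlaps between the groups.

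The RefSeq start region of CLDN1, CLDN4, CLDN7 and MARVELD2 is shown, because these genes include the largest rise and the fall and differ in the short motifs they hold. Each window runs from 250 bases before to 50 bases after an annotated start (build GRCh38.p14, 5′ to 3′ on the gene's strand). Capitals mark CAGGTG or CACCTG, the same E-box read on either strand and known as a binding motif of the ZEB and SNAI repressors, or ACCGGT, the palindromic core of the grainyhead-like motif; the CLDN1 and CLDN4 windows hold neither.
CLDN1 (chr3:190322397-190322696, minus strand): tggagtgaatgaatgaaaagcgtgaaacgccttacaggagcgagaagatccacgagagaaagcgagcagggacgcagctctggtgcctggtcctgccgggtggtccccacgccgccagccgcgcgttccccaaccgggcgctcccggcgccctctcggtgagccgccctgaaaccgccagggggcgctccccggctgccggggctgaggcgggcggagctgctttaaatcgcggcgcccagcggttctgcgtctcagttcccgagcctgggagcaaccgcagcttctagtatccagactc
CLDN4 (chr7:73830746-73831045, plus strand): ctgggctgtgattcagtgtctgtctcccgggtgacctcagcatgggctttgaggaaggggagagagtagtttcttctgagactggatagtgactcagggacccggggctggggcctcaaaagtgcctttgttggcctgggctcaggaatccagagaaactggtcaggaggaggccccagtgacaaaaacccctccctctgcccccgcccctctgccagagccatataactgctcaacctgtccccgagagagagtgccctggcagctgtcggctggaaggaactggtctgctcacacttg
CLDN7 (chr17:7262429-7262728, minus strand): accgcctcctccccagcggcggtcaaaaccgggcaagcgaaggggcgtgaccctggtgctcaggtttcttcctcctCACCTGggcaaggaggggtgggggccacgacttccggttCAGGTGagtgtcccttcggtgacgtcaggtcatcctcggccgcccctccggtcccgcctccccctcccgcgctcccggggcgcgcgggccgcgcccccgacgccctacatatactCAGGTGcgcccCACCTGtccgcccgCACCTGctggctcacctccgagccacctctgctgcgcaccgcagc
MARVELD2 (chr5:69414866-69415165, plus strand): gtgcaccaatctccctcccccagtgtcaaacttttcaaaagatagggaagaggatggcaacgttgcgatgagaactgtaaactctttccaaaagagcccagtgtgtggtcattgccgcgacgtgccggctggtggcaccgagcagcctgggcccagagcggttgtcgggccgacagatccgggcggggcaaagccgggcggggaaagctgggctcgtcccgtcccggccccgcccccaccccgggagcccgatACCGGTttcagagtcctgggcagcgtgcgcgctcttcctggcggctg

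The 9 members had 15 such windows. An E-box stood in 6 of the 15, or 40%, and in 20.6% of all 35116 windows of the same length. By gene, 0 of the 4 members that rose had one, with 1 window each, and all 5 other members had one in at least 1 of their 1 to 4 windows. These 5 include CLDN3, which was not tested. They also include TJP3, whose log2 fold change of 0.78 was above the 0.70 of CLDN4. The split thus follows the calls given above and not the size of the change. With no filter and with DESeq2 (adjusted p = 0.0331) TJP3 was called higher, so the split did not hold there. It was not tested. The CLDN7 window shown held 5 E-boxes, the first at −174 and the last at +6 from the start, and windows with 5 or more made up 0.0940% of all. Its other window held none. The grainyhead-like core occurred in 1 member window, that of MARVELD2, at +4, and in 1.83% of all windows. Member windows were richer in G and C, with a median of 67.0% against 58.7% over all windows. These are matches of letters, which show neither binding nor a cause, and no match says only that the letters are not in that window.

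CLDN1 (ENSG00000163347, chromosome 3), a barrier-forming claudin without which the skin barrier of mice fails, had 95.9 and 83.1 CPM in resistant replicates 1 and 2, against 11.3 and 8.01 CPM in the untreated libraries. Both resistant libraries stood far above both untreated ones, and the gap was much wider than the spread within either group. The log2 fold change was 3.21 (SE 0.21, 95% interval 2.75 to 3.68, adjusted p = 4.85e-06), which is 9.27-fold. It stood 283rd from the top among all 16090 tested genes by log2 fold change. Its window held no E-box and no grainyhead-like core.

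CLDN12 (ENSG00000157224, chromosome 7), a claudin linked to the passage of calcium across intestinal epithelium, had 79.4 and 73.4 CPM in resistant libraries, against 38.7 and 39.5 CPM in untreated ones. The libraries of each group lay close together, and the groups were clearly apart. Its log2 fold change was 0.97 (SE 0.16, adjusted p = 0.00130). The gene shares 5.15% of its exon bases with GTPBP10, a gene on the same strand with 479 and 569 counts in resistant libraries and 1097 and 986 counts in untreated ones, so some reads could have been assigned to either.

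CLDN4 (ENSG00000189143, chromosome 7), a claudin that tightens epithelia against sodium and is abundant in many pancreatic cancers, was the highest member in CPM. It had 317 and 303 CPM in resistant libraries, against 152 and 230 CPM in untreated ones. The groups did not overlap, but the untreated libraries differed 1.51-fold from each other while the resistant ones lay close together. On the log2 scale the change was 0.70 (SE 0.20, 95% interval 0.25 to 1.15, adjusted p = 0.0235), or 1.63-fold. Without untreated replicate 1 it was 0.45 and not called (adjusted p = 0.176).

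CLDN7 (ENSG00000181885, chromosome 17), a claudin of the basolateral membrane that binds EPCAM, was scarce. It had 0.173 and 0.118 CPM in resistant libraries, against 0.325 and 1.36 CPM in untreated ones. In counts this was 5 and 4 in resistant libraries and 12 and 51 in untreated ones, so most of the difference came from untreated replicate 2. On the log2 scale this was −2.52 (SE 0.81, 95% interval −4.31 to −0.72, adjusted p = 0.0352). The call ended without untreated replicate 2 (−1.16, adjusted p = 0.485), without resistant replicate 2 (−2.27, adjusted p = 0.111), with the replicate number as a block (−2.28, adjusted p = 0.0646) and with DESeq2 (adjusted p = 0.0771). It shares 38 exon bases with ELP5 on the opposite strand, which had 1215 and 1321 counts in resistant libraries and 2068 and 1948 counts in untreated ones, and the strand setting is not known.

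CLDN3 (ENSG00000165215, chromosome 7), a barrier claudin that lies next to CLDN4 in the genome, had 1 count in each resistant library, against 1 and 3 counts in the untreated ones. The ratio was 0.584 with an exact 95% counting interval of 0.0528 to 4.07, so a difference was not detectable at this depth. It was thus near the detection limit in cells whose CLDN4 was at 152 CPM or more.

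**Figure D2:**
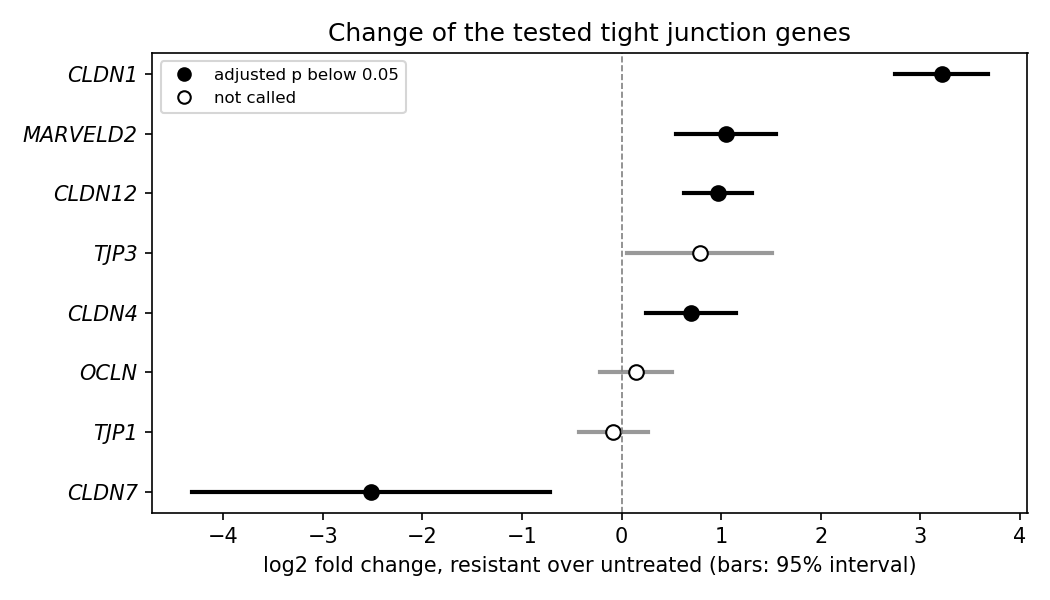
Log2 fold change of the 8 tested members, resistant over untreated, with 95% intervals from edgeR's quasi-likelihood fit. Filled points were called, and the intervals of OCLN and TJP1 span 0.

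MARVELD2 (ENSG00000152939, chromosome 5), the tricellulin of 3-cell corners whose loss causes deafness in humans, had 18.1 and 20.6 CPM in resistant libraries, against 10.0 and 8.68 CPM in untreated ones. Both resistant libraries were above both untreated ones by more than the spread within the groups. Its log2 fold change was 1.05 (SE 0.23, 95% interval 0.55 to 1.55, adjusted p = 0.00573).

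OCLN (ENSG00000197822, chromosome 5), occludin, the first strand protein of the junction to be described, had 45.1 and 50.7 CPM in resistant libraries, against 43.2 and 43.5 CPM in untreated ones. The groups did not overlap, yet the gap between them was smaller than the spread between the resistant libraries. The log2 fold change was 0.15 with a 95% interval of −0.21 to 0.50 (adjusted p = 0.524), so the interval excludes a doubling. A pseudogene, OCLNP1, matches 10.5% of the OCLN transcript and had 0 counts in both resistant libraries and 0 and 4.99 counts in the untreated ones. Occludin and tricellulin lie near each other on chromosome 5, and of the pair MARVELD2 alone was called; the difference between their changes was not tested. As a share of the 3 MARVEL genes per kb of transcript, MARVELD2 made up 37.1% and 37.4% in resistant libraries and 25.4% and 22.7% in untreated ones.

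TJP1 (ENSG00000104067, chromosome 15), the scaffold ZO-1, had 61.3 and 70.4 CPM in resistant libraries, against 72.3 and 67.1 CPM in untreated ones. The groups overlapped. The log2 fold change was −0.08 with a 95% interval of −0.43 to 0.27 (adjusted p = 0.720), and it was 0.03 without resistant replicate 1. TJP3 (ENSG00000105289, chromosome 19), ZO-3, a scaffold restricted to epithelia, had 31.3 and 23.2 CPM in resistant libraries, against 10.6 and 21.0 CPM in untreated ones. The untreated libraries differed 1.99-fold from each other, and untreated replicate 2 lay just under resistant replicate 2. The log2 fold change was 0.78 (SE 0.32, 95% interval 0.05 to 1.51) at an adjusted p = 0.0920. With 1 library left in a group, and the spread taken from the other, it passed without untreated replicate 2 (1.35, adjusted p = 0.00310) and without resistant replicate 2 (0.98, adjusted p = 0.0470). It was also called with no filter (0.79, adjusted p = 0.00265) and with DESeq2 (adjusted p = 0.0331), and was 0.39 with untreated replicate 1 left out (adjusted p = 0.347).

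To compare levels between genes, CPM were divided by the length of the longest annotated transcript. CLDN4 led the members in both groups, at 74.4 ± 2.34 CPM per kb in resistant and 45.8 ± 13.2 CPM per kb in untreated cells (SD, n = 2 each). CLDN1 came next in resistant cells at 25.7 ± 2.60 CPM per kb, and was behind CLDN12, TJP1, OCLN and TJP3 in untreated cells at 2.77 ± 0.666 CPM per kb. In resistant cells TJP1, TJP3 and OCLN, between 6.91 and 9.34 CPM per kb, overlapped in range and had no order beyond their spread. In untreated cells only TJP3 and CLDN1 overlapped with the neighbour in the order. CLDN7 and CLDN3 were last in both groups, at under 1 CPM per kb.

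Over the whole claudin family, 15 of 23 claudins had any count and 9 were tested. Their summed level was 460 and 422 CPM per kb in resistant libraries, against 190 and 147 CPM per kb in untreated ones. CLDN11, a claudin of myelin and of the testis and not one of the members, held 70.4% and 69.7% of this sum in resistant libraries and 68.7% and 46.0% in untreated ones. CLDN4 held 16.5% and 17.2% in resistant libraries and 19.2% and 37.4% in untreated ones. CLDN1 held 5.99% and 5.65% in resistant libraries and 1.71% and 1.56% in untreated ones, so its share was higher in both resistant libraries than in either untreated one. With the median length of coding transcripts, a choice made after the data had been seen, the share of CLDN12 was 13.7% rather than 4.86% in resistant cells and 17.7% rather than 6.62% in untreated ones, and that of CLDN1 was 5.21% and 1.40%. Whether CLDN12 stood above CLDN1 in resistant cells therefore depends on the transcript length used.

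**Figure D3:**
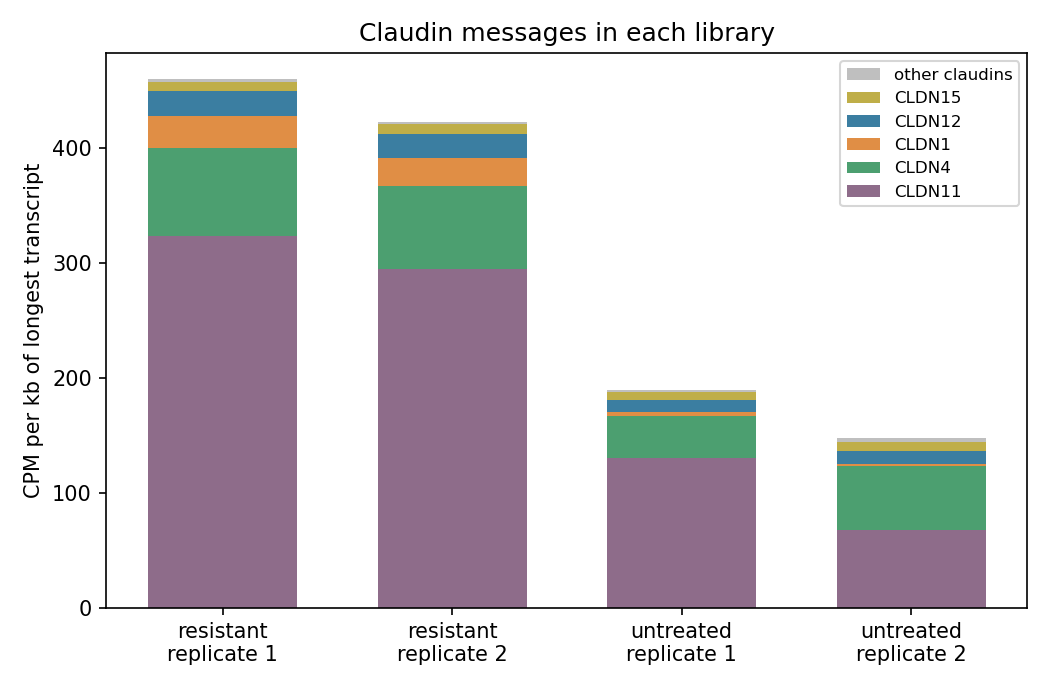
Claudin levels in CPM per kb of longest transcript, stacked for each library, resistant libraries on the left. The sums are 460 and 422 in resistant and 190 and 147 in untreated libraries, with CLDN11 as the largest part of each bar.

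The other genes of the junction were read from 4 lists with 57 genes, 35 of them tested. Of these 14 rose, 3 fell and 18 did not pass, with a median log2 fold change of 0.20. The share called was 48.6%, against 34.0% of all tested genes. The lists were chosen with earlier results of these data known, so the contrast of these shares is not a test. CLDN16 and PARD3B, among those that rose, passed the filter through the resistant libraries alone. Among other claudins 2 of 5 tested genes rose and 0 fell, while 8 of the 18 had 0 counts in all libraries. The median was 0.16, also with CLDN16 set against 3 counts for the untreated pair. CLDN11 had 702 and 639 CPM in resistant libraries, against 283 and 147 CPM in untreated ones (log2 fold change 1.64, SE 0.29, adjusted p = 0.00422). CLDN16, a claudin for magnesium uptake in the kidney, had 14 and 13 counts in resistant libraries and 0 in both untreated ones. Set against 3 counts for the untreated pair, it was 10.5-fold higher, a value that leaves out the counting error of the resistant counts. It passed the filter through the resistant libraries alone. CLDN15, a pore-forming claudin of the intestine (0.16, adjusted p = 0.599), and CLDN23 (−0.39, adjusted p = 0.506) did not pass.

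Of the junctional adhesion molecules, the immunoglobulin-type receptors at the junction, and the angulins, 3 of 6 tested genes rose and 1 fell (median 0.53). CXADR, the coxsackievirus and adenovirus receptor, had 36.8 and 33.5 CPM in resistant libraries, against 9.34 and 12.2 CPM in untreated ones (log2 fold change 1.71, adjusted p = 2.96e-04). JAM2 had 546 and 417 counts in resistant libraries, against 37 and 114 counts in untreated ones (log2 fold change 2.94, adjusted p = 0.00379), with 3.94 without untreated replicate 2 and 2.38 without untreated replicate 1. LSR, the angulin that recruits tricellulin to cell corners, had 1.24 and 1.42 CPM in resistant libraries, against 6.88 and 4.65 CPM in untreated ones (−2.11, SE 0.38, adjusted p = 0.00248). It thus fell in the cells in which MARVELD2 rose. JAM3 (0.20, adjusted p = 0.377) and ESAM (−0.09, adjusted p = 0.851) did not pass, and JAM3 shares 8.53% of its exon bases with NCAPD3 on the opposite strand.

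Of the cytoplasmic plaque scaffolds 5 of 14 tested genes rose, 1 fell and 8 did not pass (median 0.24). PATJ, a scaffold of the Crumbs complex, had 47.5 and 52.7 CPM in resistant libraries, against 23.7 and 28.1 CPM in untreated ones (log2 fold change 0.95, SE 0.18, adjusted p = 0.00268). MICALL2, which carries occludin back to the membrane with RAB13, rose by 1.35 in log2 (adjusted p = 0.00546). The gene that fell was CGN, cingulin, which binds ZO-1 and was named after its value was seen. It had 0.483 and 1.63 CPM in resistant libraries, against 5.17 and 10.7 CPM in untreated ones (−2.89, SE 0.58, adjusted p = 0.00671), with −4.02 without resistant replicate 2, −2.26 without resistant replicate 1 and −2.28 without untreated replicate 2. SYMPK, which also serves in forming the ends of messenger RNAs (−0.16, adjusted p = 0.471), and AMOTL2, an angiomotin-like scaffold (−0.08, adjusted p = 0.775), did not pass.

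Of the polarity complexes, which place the junction at the apical side, 4 of 10 tested genes rose, 1 fell and 5 did not pass (median 0.09). PRKCI, an atypical protein kinase C, had 127 and 130 CPM in resistant libraries, against 80.8 and 72.8 CPM in untreated ones (log2 fold change 0.74, adjusted p = 0.00485). PARD6B, its adaptor, rose by 1.67 in log2 (adjusted p = 0.00511), and PARD3B, a relative of PARD3, by 3.62 (adjusted p = 0.00107), which was at most 0.214 CPM in untreated libraries and passed the filter through the resistant ones alone. PARD6G, named after its value was seen, fell by 0.98 in log2 (adjusted p = 0.0219) and lost its call when resistant replicate 2 (−0.79, adjusted p = 0.0761) or untreated replicate 2 (−0.66, adjusted p = 0.159) was left out, with the spread then taken from the complete group. PARD3, the scaffold of the PAR complex (0.26, adjusted p = 0.211), and PALS1, the partner of PATJ (−0.22, adjusted p = 0.311), did not pass.

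**Figure D4:**
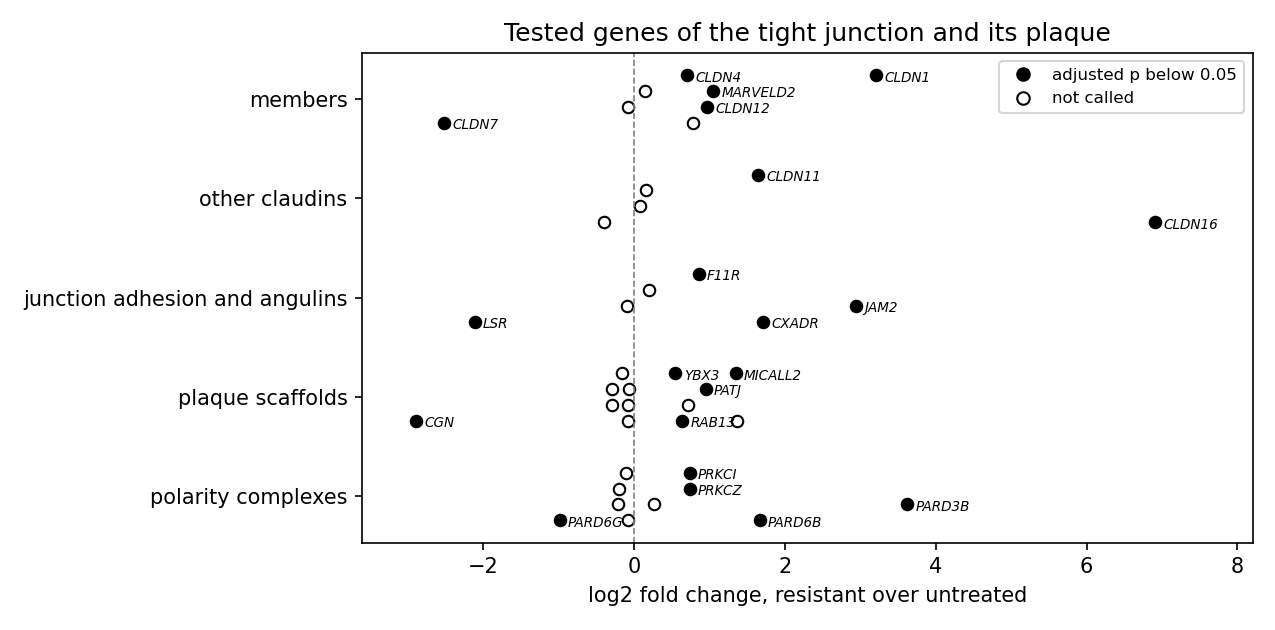
Log2 fold change, resistant over untreated, of the tested members and of tested genes of 4 companion lists (all but 1), with called genes filled and named. LSR and CGN are at −2.11 and −2.89, and the fitted value of CLDN16 has no fixed size because its untreated counts are 0.

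The place of the members in the genome was compared by the 10 nearest tested genes on either side, in the gene order of GENCODE 29. Around CLDN1 the median log2 fold change of these 20 genes was 0.78, with 9 called higher and 0 lower, against 0.14 over the chromosome. They include CLDN16, which passed the filter through the resistant libraries alone, so its place among them is tied to its being higher there. Around CLDN4 the median was 0.69, with 8 higher and 1 lower, against 0.25, and CLDN3 shares most of these neighbours. Around MARVELD2 it was −0.44, with 0 higher and 7 lower, and around OCLN −0.40, with 1 higher and 6 lower, against −0.35 over all tested genes of chromosome 5. MARVELD2 thus rose on a chromosome whose median was below 0. CLDN12, CLDN7, TJP1 and TJP3 had medians between −0.19 and 0.24. The counts of called neighbours stand beside 34.0% called over all tested genes, 16.6% higher and 17.4% lower. OCLN and MARVELD2 lie near each other, so their sets of neighbours overlap.

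The protein-coding genes beside CLDN1 were looked at one by one after its values were seen. P3H2, a collagen prolyl hydroxylase and the next gene on one side, had 241 and 173 CPM in resistant libraries, against 7.77 and 6.52 CPM in untreated ones (log2 fold change 4.86, SE 0.23, adjusted p = 5.20e-07). CLDN16, described above, was the next gene on the other side. Farther out, TP63, a transcription factor of basal epithelia, rose by 0.99 (adjusted p = 0.00287), LPP, a protein of focal adhesions, by 1.34 (adjusted p = 4.57e-04) and IL1RAP by 1.64 (adjusted p = 0.0144, and 0.0505 without untreated replicate 2), while TPRG1 between LPP and TP63 did not pass (−0.10, adjusted p = 0.752). TMEM207 and GMNC had 0 counts in all libraries. The log2 fold changes of the tested genes beside CLDN1 other than CLDN16 thus ran from −0.10 to 4.86.

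**Figure D5:**
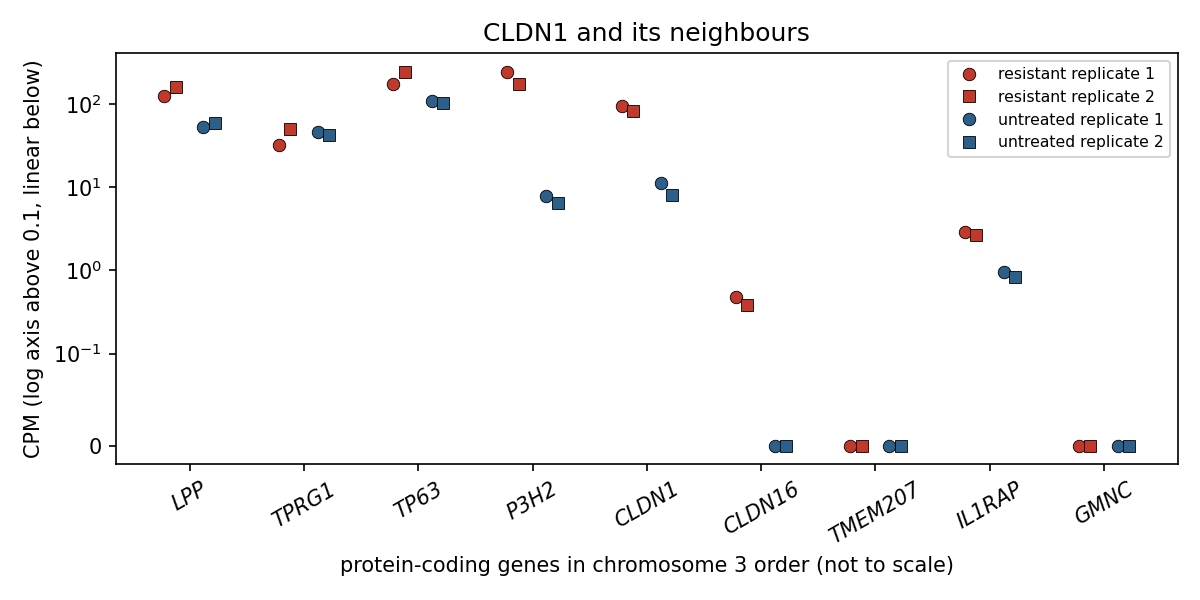
CPM (log axis above 0.1, linear below) of CLDN1 and the 4 nearest protein-coding genes on either side, in chromosome order, with resistant libraries in red and untreated ones in blue. P3H2 and CLDN1 stand well apart between the groups, and CLDN16 is at 0 in both untreated libraries.

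The tested genes whose profile over the 4 libraries was most like that of CLDN1, by Euclidean distance between log2 CPM centred on their mean, were FAM107B (0.19), ST3GAL6 (0.22) and P3H2-AS1 (0.25). FAM107B had 261 and 202 CPM in resistant libraries, against 33.0 and 22.2 CPM in untreated ones. P3H2-AS1 had 0.794 and 0.533 CPM in resistant libraries, against 0.0271 and 0 CPM in untreated ones, so its distance depends on the prior count added before the log. P3H2-AS1 passed the filter on low counts through the resistant libraries alone, so its place among the tested genes is tied to its being higher there. It is named as an antisense RNA of P3H2, and without strand information reads of the pair cannot be told apart. Among the members the closest to CLDN1 was MARVELD2 at 2.21, at rank 1567 of the tested genes. With 4 libraries in 2 groups this distance mostly reads the size of the group difference.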

How the data were processed

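PolyA RNA libraries from 2 resistant and 2 untreated MIA-PaCa2 populations were grouped by sample title. Values are expected counts per gene, deposited by the authors without scaling, per the file headers. The submitters' processing notes name STAR 2.7.2b, RSEM 1.3.1 and, as build, GRCh37, without giving roles. The annotation release and strand setting are not given in the sources used here. Of all values 93.6% were whole, and the rest were rounded for tests. Symbols came from a gene name table, and GENCODE 29, of another build, gave only lengths, chromosomes, gene order and overlaps.

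edgeR 4.0.16 (R 4.3.3) kept 16090 genes with filterByExpr, applied TMM factors (0.962 to 1.05) and tested resistant over untreated libraries with robust quasi-likelihood F-tests, adjusted over all tested genes. The test was also run on counts simulated with the spread fitted to these data. Such counts check the code, but not whether that spread is right or the libraries independent. The SE is the log2 fold change over the square root of F. Members and lists were chosen with earlier results of these data known. From each list the up to 3 called genes with the smallest adjusted p and the up to 2 others with the highest CPM are named, plus the called epithelial and fibroblast markers and those marked as named later; 1 gene is counted in its list but not reported here. Alternatives were RLE and upper-quartile scaling, other filters, DESeq2 1.42.0, edgeR's newer quasi-likelihood form, a replicate block, left-out libraries and a threshold of 0.01. Transcript copies were sought with megablast (at least 97% identity over 75 bases, 5% of the transcript). Protein sequences were not used here.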

Additional observations from a re-analysis of the deposited data

How the results depend on the processing

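CLDN1, CLDN12 and MARVELD2 kept their direction and their call under all 11 alternatives that refit the data, with log2 fold changes of 2.98 to 3.50, 0.92 to 1.02 and 0.94 to 1.18. The calls of CLDN4, CLDN7 and TJP3 changed as given beside them. At a threshold of 0.01 the number of members called was 3 and that of all genes 2832. With each library left out in turn, 2832 to 5041 genes, 4 to 5 members and 13 to 17 companion genes were called. With 1 library left out, the log2 fold change ran from −0.19 to 0.029 for TJP1 (0.029 without resistant replicate 1), from −0.31 to 0.20 for AMOTL2 (0.034 without resistant replicate 2, 0.20 without untreated replicate 1) and from −0.45 to 0.20 for TPRG1 (0.20 without resistant replicate 1), each with its sign turned in the settings named. None of these 3 genes was called in any of the 11, and the cause was not tested. With the replicate block 5275 genes, 4 members and 17 companion genes were called, and among the called genes refitted one by one it ended the calls of CLDN7 and OVOL1. Same-numbered libraries did not deviate together (r = −0.06 across genes), and the labels do not say that a number marks a shared culture. Scaling moved the median of all tested genes by less than 0.1 in log2. Depth limits CLDN3, CLDN7 and CLDN16, which rest on few counts. The share of the claudin level changed with transcript length as given beside it.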
